A study of Mus musculus with 7 samples.

Results

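The interferon response genes described here are 33 genes that cells transcribe after an interferon signal, read from a table of 25322 genes in 7 bulk RNA-seq libraries of sorted mouse skin cells. They were taken by gene name, by a rule that uses no measured value, and all 33 were found in the table. Of these, 26 are genes that type I interferons induce and 7 are GTPases best known as targets of interferon gamma, although many genes of each class answer to both kinds of interferon. The cells expressed tdTomato, a red fluorescent protein, and were sorted on day 36. All groups had received 4-hydroxytamoxifen (4-OHT), the agent that activates CreER, as pups from day 4 to 7 or from day 5 to 8. All animals carried Lrig1-CreER or Lrig1-CreERT2 (+/-), in which the Lrig1 gene, active in stem cells of the upper hair follicle, directs an inducible Cre recombinase. Of the 3 controls, 2 were ZNF750 wt/fl and 1 was ZNF750 wt/wt, all Rosa26 +/-. The 4 knockouts, Zfp750_KO, were ZNF750 fl/fl, and 1 of them is labelled Rosa26 -/- while the others are Rosa26 +/-. The column names of the table give the group but could not be tied to single samples, so it is not known which column is the ZNF750 wt/wt control or the Rosa26 -/- knockout. Nothing in the labels ties a library to 1 animal, and the p-values therefore rest on library-to-library spread, part of which may be technical.

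Type I interferons (the alpha and beta family) bind IFNAR1 and IFNAR2 and act through the kinases JAK1 and TYK2. Their signal assembles ISGF3, a factor that includes STAT2 and IRF9 and binds the interferon-stimulated response element (ISRE) of antiviral genes such as the OAS, IFIT and Mx families. Interferon gamma, made mainly by T and NK cells, binds its own receptor and acts on gamma-activated sites (GAS) and through IRF1, and it induces the guanylate-binding proteins (GBP) and immunity-related GTPases (IRG). In skin both kinds of interferon are known from the response to viruses and from psoriasis-like inflammation.

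The libraries were named 4F, 4M and 7F in the controls and 1M, 2M, 3F and 6F in the knockouts, and values below are given in that order. Read totals, estimated from a value of 1 read inferred for each library, were 9.09 to 17.1 M. Read numbers of single genes given below rest on the same estimate. Zfp750, the targeted gene, measured 335, 51.2 and 61.9 in the controls and 48.9, 45.4, 10.1 and 29.6 in the knockouts (log2 difference -1.47, two-sided exact permutation p = 0.0571, the smallest that 3 against 4 libraries can give), and without control 4F the log2 difference was -0.70. The libraries labelled knockout 1M and 2M thus lay close to control 4M in this gene, though not in their keratinocyte markers (given below). Whether Zfp750 was deleted in all their cells cannot be read from these levels. In control 4M the male transcript Ddx3y (810.0) stood beside Xist at 3318, against at most 6.24 for Xist in the other M libraries and at least 23423 in the F libraries, so this library held both. Ptprc, which encodes CD45 and marks all leukocytes, measured 58.8, 5652 and 7853 in the controls and 538, 517, 13422 and 10251 in the knockouts. It spanned 228-fold over the libraries, and 2 libraries of each group (control 4M and 7F, knockouts 3F and 6F, called Ptprc-rich here) held far more of it than the other 3, called Ptprc-poor. Among the knockouts both M libraries were Ptprc-poor and both F libraries Ptprc-rich, so an order by Ptprc cannot be told apart from one by sex there. Among cell type markers, 8 fibroblast genes summed to 17039.6 to 177043 per M of the column total and 9 keratinocyte genes to 212 to 2816 per M, with Krt1 at 0 in a library. By library the keratinocyte sum was 2816, 277 and 430 per M in the controls and 2576, 1063, 212 and 638 per M in the knockouts. Knockout 1M thus lay near control 4F in this sum and far above control 4M. The part of keratinocyte content in the Zfp750 levels was not tested. The macrophage and monocyte list of 18 genes, none at 0 in any library, summed to 253 to 5739 per M in the controls and 553 to 10169 per M in the knockouts.

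The promoters show what the 2 classes share in sequence. RefSeq promoters of build GRCm38.p6, from 250 bases before to 50 bases after each start, were matched by symbol for 24 of the 33 genes. The letters GAAANNGAAA, the core of the ISRE, occurred on either strand in 17 of these 24 (70.8%), against 3.99% of 27025 genes with a promoter in the table. They occurred in 11 of 18 type I inducible genes (61.1%) and in all 6 of the matched GTPases (Gbp2, Gbp3, Gbp5, Gbp7, Igtp and Irgm1). The letters TTCNNNGAA, a GAS that reads the same on both strands, occurred in 6 of 24 (25%), of which 3 were among the 18 type I inducible genes and 3 among the 6 GTPases, against 9.55% of all genes. Both sets of letters thus occurred in both classes. A match is a description of these letters and not a measured binding site. The stretches that follow, chosen after the values were seen, show the ISRE letters in capitals, on the gene's strand 5′ to 3′ and ending before the start of transcription. They are from Isg15 (chr4:156200841-156200930, - strand), Oas1a (chr5:120907526-120907579, - strand), Oas3 (chr5:120777685-120777774, - strand), Ifit3 (chr19:34583367-34583456, + strand), Gbp2 (chr3:142620564-142620653, + strand), Igtp (chr11:58199482-58199555, + strand) and Irgm1 (chr11:48871421-48871484, - strand).
Isg15: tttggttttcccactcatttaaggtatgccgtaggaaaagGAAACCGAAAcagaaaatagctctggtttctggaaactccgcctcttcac
Oas1a: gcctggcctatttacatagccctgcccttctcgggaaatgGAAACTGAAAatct
Oas3: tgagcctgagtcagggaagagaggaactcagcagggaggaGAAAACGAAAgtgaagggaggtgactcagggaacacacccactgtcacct
Ifit3: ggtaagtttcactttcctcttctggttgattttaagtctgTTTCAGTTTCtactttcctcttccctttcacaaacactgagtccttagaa
Gbp2: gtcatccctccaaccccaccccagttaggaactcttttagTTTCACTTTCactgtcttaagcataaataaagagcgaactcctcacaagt
Igtp: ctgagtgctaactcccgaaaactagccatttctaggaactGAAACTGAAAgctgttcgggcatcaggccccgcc
Irgm1: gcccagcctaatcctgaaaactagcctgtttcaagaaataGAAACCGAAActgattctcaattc
In Isg15, Oas1a, Oas3, Igtp and Irgm1 the letters stand on the strand shown, and in Ifit3 and Gbp2 they stand on the other strand and read as TTTC with a spacer. The capitals begin 72 bases before the start in Isg15, 14 in Oas1a, 75 in Oas3, 122 in Ifit3, 59 in Gbp2, 34 in Igtp and 24 in Irgm1. The 90 bases printed for Ifit3 are also those around the match in Ifit3b (chr19:34607763-34607852, + strand), its near-identical neighbour.

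The levels are normalized counts with no correction for gene length, so genes are compared between libraries and not with each other. Of the 33 genes, 32 passed a filter of at least 1 per M in 3 or more libraries. Ifi44 (ENSMUSG00000028037), at 6.97, 5.25 and 10.1 in the controls and 13.5, 17.4, 4.51 and 10.3 in the knockouts, did not pass. Differences are on the scale log2(value + 11.9), on which low genes show less than their true fold. A pattern that part of the genes shared was the order of the libraries by Ptprc. Of the 32 genes tested, 15 were higher in each of the 4 Ptprc-rich libraries than in each of the other 3, against 23.2% of the 18140 genes tested apart from Ptprc. Of these 15, 14 were among the 25 type I inducible genes and 1 (Gbp3) among the 7 GTPases. Only Ifit2 and Iigp1 were lower in each of the 4 than in each of the other 3, against 22.9% of all genes. The remaining 15 of the 32 genes held neither order. In bulk samples, fewer cells of a type and less RNA per cell cannot be told apart.

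**Figure D1:**
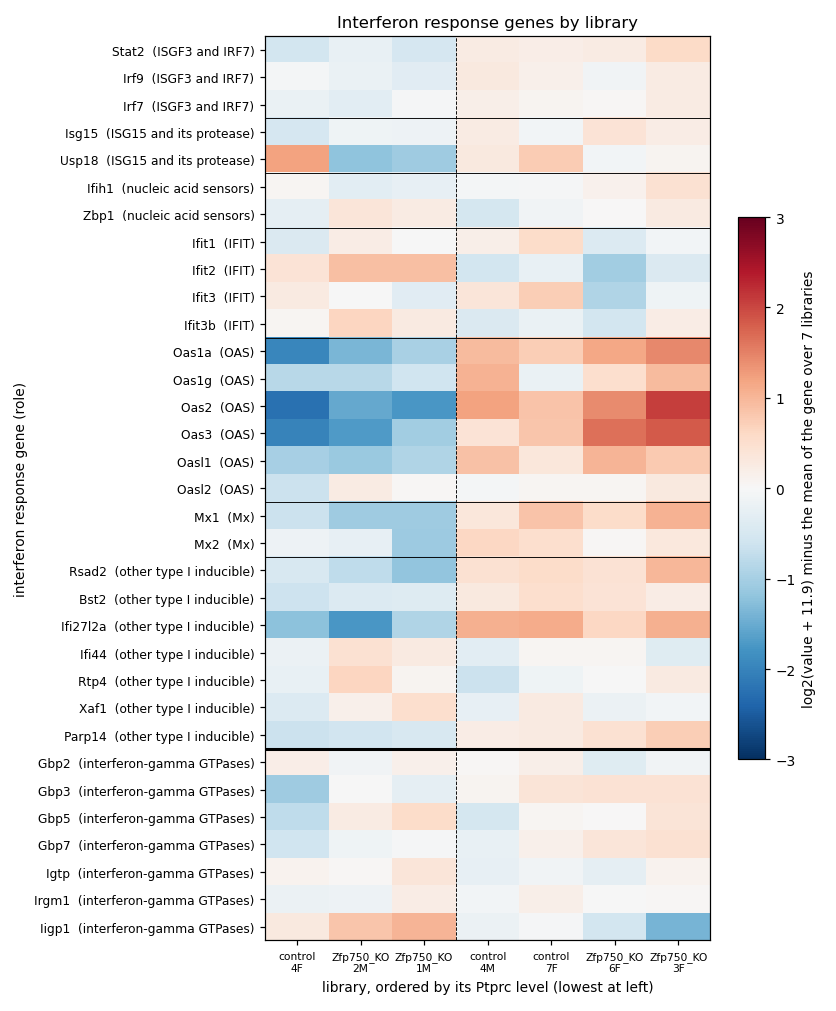
Each cell is the level of a gene (rows, by role) in a library (columns, ordered by Ptprc), as log2(value + 11.9) minus the gene's mean over the 7 libraries. The dashed line parts the 3 libraries low in Ptprc from the 4 rich in it and the thick line parts the type I inducible genes from the GTPases. Apart from Oasl2, the OAS rows are blue at left and mostly red at right, while most GTPase rows hold pale colours throughout.

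The widest ranges were those of OAS genes. Oligoadenylate synthetases (chromosome 5) make the messenger that activates RNase L after sensing double-stranded RNA. Oas2 (ENSMUSG00000032690) measured 5.42, 179.9 and 136 in the controls and 12.5, 16.4, 334 and 208 in the knockouts. Oas3 (ENSMUSG00000032661) measured 1.55, 60.4 and 85.5 in the controls and 14.6, 4.83, 184 and 159 in the knockouts. Both followed the order by Ptprc closely enough that control 4F, the library with the least Ptprc, was lowest and knockouts 3F and 6F were the highest. Oas1a (ENSMUSG00000052776) measured 3.1, 99.6 and 85.7 in the controls and 17.7, 10.6, 147 and 119 in the knockouts. In control 4F these 3 genes rested on 2 to 7 reads, and Oas1g, a close copy of Oas1a, on none. Oas1a and Oas1g share 57.6% and 45.25% of their 50-base stretches with each other, so the split of reads between them is uncertain. Oasl1 measured 3.1, 43.3 and 25.9 in the controls and 4.16, 1.93, 39.5 and 48.9 in the knockouts, again with the 4 Ptprc-rich libraries above the others. Oasl2, the OAS-like gene with the highest mean, stood apart from its family. It measured 121, 185 and 201 in the controls and 199.6, 234, 241 and 202 in the knockouts, so that the Ptprc-poor knockouts were as high as the Ptprc-rich ones.

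A slope on log2 Ptprc, from a limma fit that holds the group as a second term, describes the relation in each gene. Across 7 libraries that fall into Ptprc-poor and Ptprc-rich sets it is a description and carries no p-value. Each slope is the change in log2 level per unit of log2 Ptprc. Over all genes tested its median was -0.0048, with quartiles of -0.094 and 0.097, and 48.6% of slopes were positive. The OAS genes had a median slope of 0.40, led by Oas2 (0.61 ± 0.06, SE), Oas3 (0.53 ± 0.07) and Oas1a (0.48 ± 0.05). Leaving out each library in turn kept the slope of Oas2 between 0.56 and 0.76. On the fitted line, the value + 11.9 of Oas2 was thus 5.36-fold higher at 16 times the Ptprc level, and that of Oas3 4.29-fold. The fold of the values themselves was larger, because both genes were low in the Ptprc-poor libraries. Over the 25 type I inducible genes the median slope was 0.09 and 12 of them exceeded the upper quartile of all genes. Over the 7 GTPases the median was 0.02 and 2 (Gbp3 and Gbp7) exceeded it. When values were divided by the column total, these medians became 0.12 and 0.06 beside 0.034 for all genes, and the sign of the slope turned in Zbp1, Ifit3, Rtp4, Xaf1 and Gbp2.

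**Figure D2:**
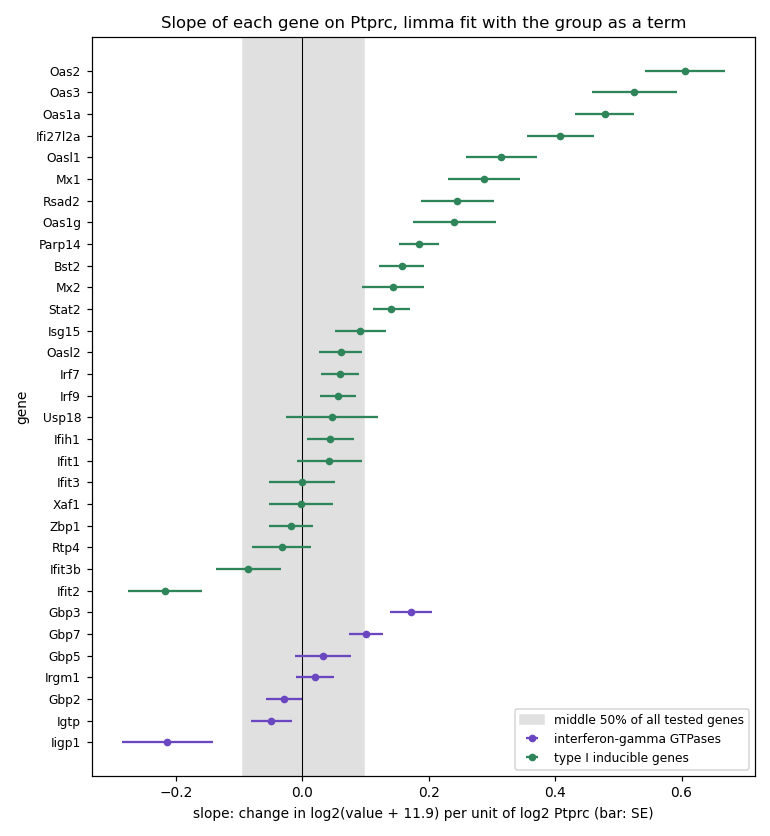
Points are the slope of each gene on log2 Ptprc in the fit with the group as a term, and bars are its standard error. The grey band is the middle 50% of all tested genes (-0.094 to 0.097). The OAS genes other than Oasl2, and Ifi27l2a, lie to its right, most GTPases lie in or near it, and Ifit2 and Iigp1 lie to its left.

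Markers of other cell types differed along the same order, and their part in the levels of the interferon response genes was not tested. All 18 macrophage and monocyte markers but 1 had a positive slope (median 0.86), and all 8 fibroblast and 9 keratinocyte markers had a negative one (medians -0.29 and -0.48). The 6 pan-leukocyte genes, Ptprc among them, summed to 29.9 to 1647 per M in the controls and 169 to 2886 per M in the knockouts. The 10 T cell genes summed to 248 to 591 and 357 to 693 per M, most of it Thy1, which fibroblasts also express, and Cd3d was at 0 in control 4F. The 5 tested NK and cytotoxic genes summed to 1.06 to 34.3 and 4.73 to 67.3 per M, with Ncr1, Klrb1c, Gzma and Gzmb at 0 in at least 1 library. Siglech, the defining marker of plasmacytoid dendritic cells, the main makers of type I interferon, was at 0 in control 4F and at most 17.1 elsewhere. Of the 6 markers listed for these cells 3 were tested (Tcf4, Bcl11a and Ccr9). They summed to 379 to 417 and 265 to 829 per M, highest in knockouts 1M and 2M. By mean log2 level the same 3 genes were instead highest in controls 4M (9.02) and 7F (8.91), beside 8.72 and 8.80 in knockouts 1M and 2M. Their slopes on Ptprc differed in sign, at -0.21 for Tcf4, 0.05 for Bcl11a and 0.14 for Ccr9. The order by sum is thus no measure of plasmacytoid dendritic cells. The 8 dendritic and Langerhans cell genes summed to 25.5 to 347 and 35.5 to 497 per M (median slope 0.56). Of these 8, 7 were higher in every Ptprc-rich library, against 23.2% of all genes.

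**Figure D3:**
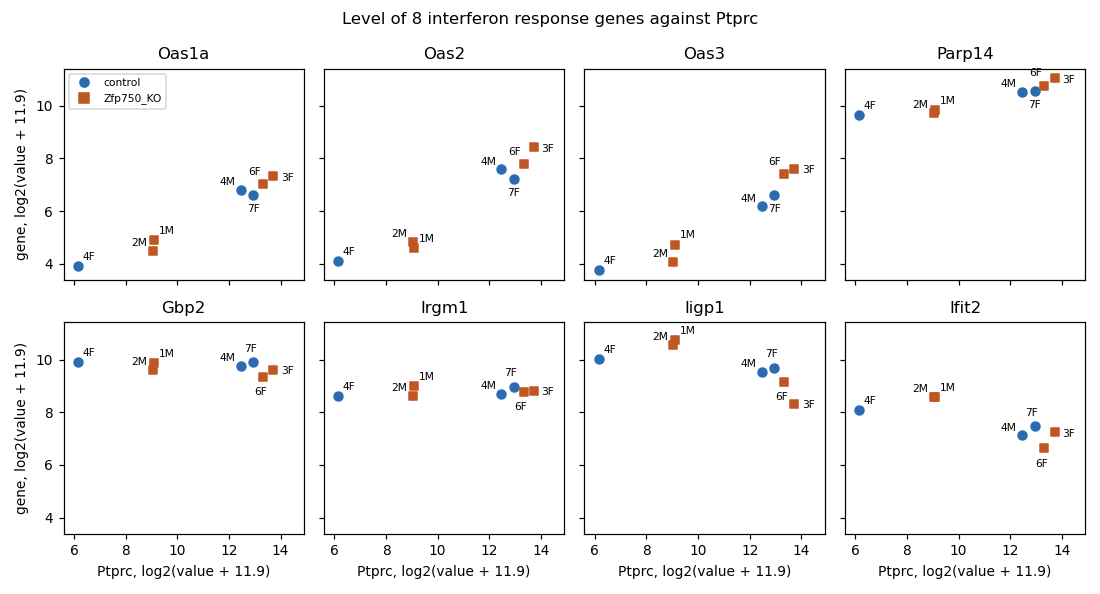
The level of 8 interferon response genes, as log2(value + 11.9), is plotted against that of Ptprc on the same scale, with 1 point per library (circles controls, squares Zfp750_KO). Oas1a, Oas2, Oas3 and Parp14 climb with Ptprc in both groups, Gbp2 and Irgm1 are level, and Iigp1 and Ifit2 are lower in the 4 libraries rich in Ptprc.

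The ISGF3 subunits and IRF7 were steady in comparison. Stat2 (ENSMUSG00000040033, chromosome 10), a subunit of ISGF3, measured 568, 989.9 and 961 in the controls and 583, 706, 1239.9 and 989 in the knockouts, with the 4 Ptprc-rich libraries above the other 3 and a slope of 0.14. Irf9 (ENSMUSG00000002325, chromosome 14), the DNA-binding subunit, measured 530.3, 688 and 622 in the controls and 439, 485, 655 and 511 in the knockouts. Irf7 (chromosome 7), which amplifies the interferon-alpha response, stayed between 216 and 328 over all libraries. The range of each of these genes was at most 2.18-fold, against 61.6-fold for Oas2.

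ISG15, a ubiquitin-like modifier, and the protease USP18, which removes it and also restrains the type I receptor, were ordered differently. Isg15 (chromosome 4) measured 18.6, 39.4 and 29.2 in the controls and 27, 28, 38.3 and 45.5 in the knockouts, on 24 to 66 reads, and its groups overlap. Usp18 (ENSMUSG00000030107, chromosome 6) measured 170.3, 85.3 and 121 in the controls and 26, 22.2, 72.1 and 63.3 in the knockouts. All 4 knockouts lay below all 3 controls, and the lowest were the Ptprc-poor knockouts 1M and 2M while the highest was the Ptprc-poor control 4F. The means were 126 ± 42.7 (SD, n = 3) and 45.9 ± 25.5 (SD, n = 4). The nucleic acid sensors were ordered otherwise. Ifih1 (MDA5, a cytosolic sensor of long double-stranded RNA, chromosome 2) measured 421, 383 and 393 in the controls and 336, 319.7, 559 and 439 in the knockouts, which overlap. Zbp1 (ENSMUSG00000027514, a sensor of Z-form nucleic acids that can trigger necroptosis, chromosome 2) measured 150.2, 123 and 168 in the controls and 219, 239, 221 and 183 in the knockouts. Each knockout exceeded each control, and the level did not follow Ptprc in either group (slope -0.02).

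The IFIT genes on chromosome 19, whose products bind foreign RNA ends and inhibit translation, did not share an order. Ifit2 (ENSMUSG00000045932) measured 261, 127 and 164 in the controls and 369, 369.9, 139.8 and 87.5 in the knockouts, and its 3 highest libraries were those poor in Ptprc (slope -0.22). Ifit3 (ENSMUSG00000074896) measured 62, 67 and 90.2 in the controls and 36.9, 49.4, 44.8 and 21.1 in the knockouts, where all 4 knockouts were below all 3 controls. Ifit3b, on 5 to 28 reads, measured 13.9, 6.48 and 9.88 in the controls and 18.2, 27, 17.2 and 5.09 in the knockouts. Ifit3 and Ifit3b share 51.2% and 44.5% of their 50-base stretches with each other. How the counting split such reads is not given in the sources used here, so neither value alone is certain. Ifit1 stayed between 53.4 and 117, with the groups overlapping.

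The Mx genes on chromosome 16, which encode dynamin-like GTPases that trap viral nucleocapsids, were higher in the Ptprc-rich libraries of each group. Mx2 (ENSMUSG00000023341) measured 73.4, 134 and 123 in the controls and 32.2, 67.6, 107 and 85.8 in the knockouts. Mx1 measured 17.9, 47.3 and 73.1 in the controls and 10.4, 10.6, 85 and 57.4 in the knockouts. In both genes the lowest library was knockout 1M, not control 4F, although the latter held the least Ptprc.

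Among the remaining type I inducible genes, Parp14 and Ifi27l2a were ordered by Ptprc and Rtp4 was not. Parp14 (ENSMUSG00000034422, chromosome 16), a mono-ADP-ribosyltransferase, measured 795, 1469 and 1505 in the controls and 893, 836, 2098 and 1723 in the knockouts. Its 4 Ptprc-rich libraries were all above the other 3. Ifi27l2a (ENSMUSG00000079017, chromosome 12), a small membrane protein gene, measured 9.29, 91.9 and 95.6 in the controls and 14.6, 2.9, 91.3 and 64 in the knockouts, and its slope of 0.41 was the largest outside the OAS family among the 32 genes. Rsad2 (viperin, chromosome 12), an enzyme that makes a chain-terminating nucleotide, ranged from 14.6 to 107 and Bst2 (tetherin, chromosome 8), which holds budding virions at the cell surface, from 50.3 to 124. In both the Ptprc-rich libraries were the higher ones. Rtp4 (ENSMUSG00000033355, chromosome 16) measured 60.6, 42 and 65.2 in the controls and 76.9, 121, 90.2 and 71.7 in the knockouts. Each knockout was above each control, with no order by Ptprc. Xaf1 (chromosome 11), a gene of a pro-apoptotic protein, ranged from 51.9 to 109 with the groups overlapping.

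The interferon-gamma GTPases had smaller slopes on Ptprc than the OAS genes, by their medians. The IFIT genes and the nucleic acid sensors had low medians too (-0.04 and 0.013). The 19 other tested genes that interferon gamma induces had a median slope of 0.13, from -0.14 to 0.90, and 13 of them exceeded the upper quartile of all genes. Among these 19, genes of the GBP and IRG families ranged from -0.14 (Gbp6) and -0.07 (Irgm2) to 0.49 (Gbp2b) and 0.62 (Gbp8). Low slopes were thus not shared by all genes that interferon gamma induces, nor by all genes of these GTPase families. The guanylate-binding proteins (Gbp2, Gbp3, Gbp5 and Gbp7, chromosome 3) coat intracellular pathogens and promote inflammasome activity. Gbp2, chosen after its values were seen, measured 949.9, 853 and 936 in the controls and 928, 767, 773 and 642 in the knockouts, a range of 1.48-fold while Ptprc ranged 228-fold. Gbp5 (ENSMUSG00000105504) measured 92.9, 110.3 and 172 in the controls and 248, 198, 219 and 167 in the knockouts. Only control 7F reached the level of the lowest knockout, 6F. Gbp3 measured 101, 239 and 299 in the controls and 184, 224, 308 and 309.9 in the knockouts, and it alone among the GTPases was above in every Ptprc-rich library. Gbp7 ranged from 453 to 959, lowest in control 4F and highest in knockout 3F. The immunity-related GTPases Irgm1 and Igtp (chromosome 11) act on the membranes of vacuoles that hold pathogens. Irgm1 measured 382, 404 and 488 in the controls and 501, 383, 441 and 424 in the knockouts, the narrowest range of the 33 genes (1.31-fold). Igtp ranged from 261 to 413. Iigp1 (ENSMUSG00000054072, chromosome 18), which breaks open parasite vacuoles, was the exception. It measured 1027, 733 and 811 in the controls and 1694, 1494, 308 and 558 in the knockouts, so that the Ptprc-poor knockouts were highest and the Ptprc-rich knockouts lowest, with the controls between them. Gbp7 and Igtp share 12.7% and 11.8% of their 50-base stretches with other transcripts, and Rtp4 11.6%.

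The mean log2 level of the classes sums this up as a description. The 25 type I inducible genes averaged 6.20, 6.99 and 7.06 in the controls and 6.28, 6.30, 7.27 and 6.96 in the knockouts, a range of 1.07. The 7 GTPases averaged 8.49, 8.61 and 8.89 and 9.06, 8.87, 8.76 and 8.72, a range of 0.57. The type I inducible mean was higher in each Ptprc-rich library than in each other library, and the GTPase mean was highest in knockout 1M, which is poor in Ptprc.

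The libraries labelled Zfp750_KO were then compared with the controls over all genes by limma, with Benjamini-Hochberg adjustment over all genes tested. With the group as the only term, 0 of the 32 interferon response genes passed an adjusted p of 0.05, as did 0% of the 18141 genes tested. An unadjusted p under 0.05 was seen in 4 of 32 (12.5%), namely Usp18, Zbp1, Ifit3 and Gbp5, against 5.83% of all genes. The smallest adjusted p was that of Usp18, at a log2 difference of -1.32 ± 0.42 (SE, limma adjusted p = 0.605). The median log2 difference was 0.016 over the 25 type I inducible genes and 0.14 over the 7 GTPases, beside 0.025 over all genes. The OAS genes spread widely within each group, and the differences were 0.11 ± 1.24 for Oas2 and 0.44 ± 1.09 for Oas3.

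With log2 Ptprc as a covariate, the standard errors of the same genes were smaller, 0.34 for Oas2 and 0.36 for Oas3. In this fit 0 of 32 passed, against 2.29% of genes (134 higher and 281 lower in the knockouts). An unadjusted p under 0.05 was seen in 7 of 32 (21.9%), against 16.1% of all genes. The smallest adjusted p was again that of Usp18, at -1.35 ± 0.39 (limma adjusted p = 0.128), with 4 of 4 knockouts under every control. Leaving out each library in turn moved this difference between -1.68 and -0.72. Within the 4 Ptprc-rich libraries it was -0.52 ± 0.30 (limma adjusted p = 0.317). Ifit3 (-0.79 ± 0.28, adjusted p = 0.212), Ifi27l2a (-0.88 ± 0.29, adjusted p = 0.17) and Mx2 (-0.68 ± 0.26, adjusted p = 0.242) also had negative estimates. Zbp1 (0.53 ± 0.19, adjusted p = 0.199), Gbp5 (0.69 ± 0.24, adjusted p = 0.203) and Rtp4 (0.61 ± 0.25, adjusted p = 0.271) had positive ones. None of these passed the threshold over all genes, and the median estimates were -0.18 for the type I inducible genes and 0.18 for the GTPases beside 0.016 for all genes. Whether the 2 classes differ in their response was not tested.

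**Figure D4:**
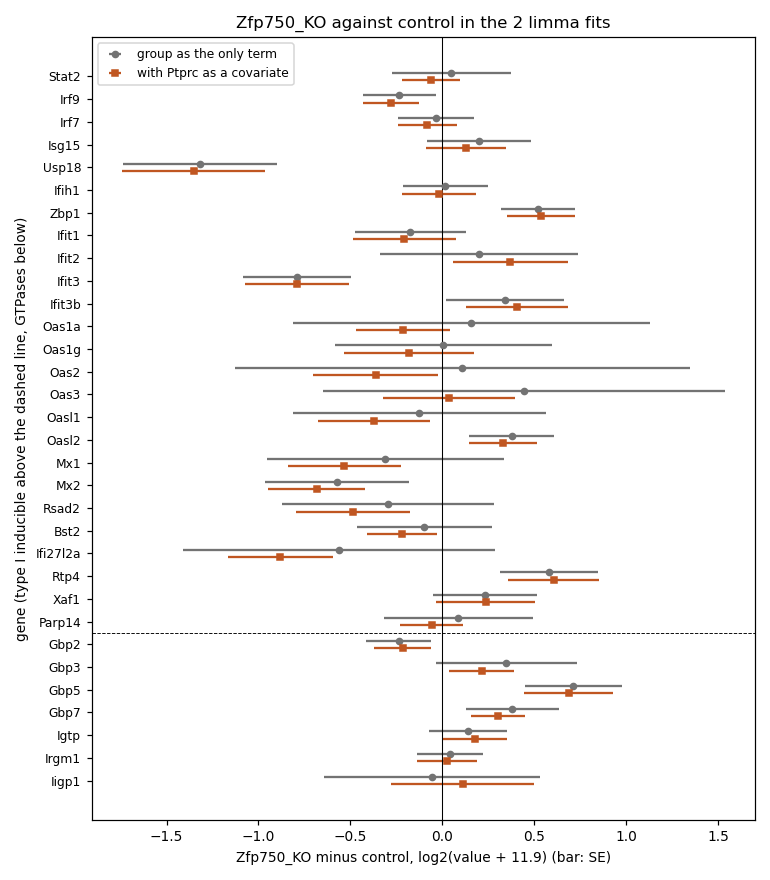
Points are the log2 difference between Zfp750_KO and control in the fit with the group alone (grey circles) and with log2 Ptprc as a covariate (orange squares), and bars are standard errors. The bars of the OAS genes shrink once Ptprc is in the fit, and Usp18 lies farthest to the left in both fits (-1.32 and -1.35).

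In the values themselves, Zbp1 and Rtp4 were higher in every knockout than in every control, 2 of 32 against 3.19% of all genes. Usp18 and Ifit3 were lower in every knockout, 2 of 32 against 3.91%. Leaving out a library raised such counts over all genes too. Without control 7F the higher genes were 6 of 32, against 5.2% of all genes, and without knockout 6F they were 4, against 5.09%. Without control 4F the lower genes were 4 of 32, against 9.98% of all genes.

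The result depended on how the libraries were weighted and which were compared. With array weights, which gave control 4F and knockouts 3F and 6F weights of 0.325, 0.265 and 0.309, the fit with the group alone called 7 of the 32 genes (21.9%) and 3795 genes in all, 20.9% of those tested. The 7 were Usp18, Ifit3, Mx1, Mx2, Rsad2 and Ifi27l2a (lower) and Zbp1 (higher), and none of the other alternatives of this fit called any of the 32. The Ptprc-rich controls 4M and 7F had weights of 1.63 and 3.995 and the Ptprc-poor knockouts 1M and 2M weights of 1.97 and 2.94. With a sex term beside Ptprc, Usp18 was called at -1.15 (adjusted p = 0.031), with the letters M and F of the column names taken as sex, 1 of 32 genes against 4.77% of all genes. This sex term is set apart from Ptprc mainly through the controls, of which 4M held both Xist and Ddx3y. The fit left 3 residual degrees of freedom. Within the 4 Ptprc-rich libraries alone, 2 of each group, 2 of the 32 genes passed, against 11.5% of all genes. Oas3 was higher in the knockouts by 1.13 ± 0.28 (limma adjusted p = 0.0226) and Iigp1 was lower, at -0.88 ± 0.25 (adjusted p = 0.0435). In those 4 libraries Ptprc too was higher in both knockouts (13422 and 10251) than in both controls (5652 and 7853), so that group and Ptprc level cannot be told apart there. Over the fit with Ptprc and its 18 alternatives the adjusted p ran from 0.031 to 0.317 for Usp18, from 0.0226 to 0.985 for Oas3 and from 0.0435 to 0.982 for Iigp1. Iigp1 had a positive estimate (0.11 ± 0.39) over all 7 libraries with Ptprc as a covariate.

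The other genes of the pathway were read from lists of 114 genes, of which 96 were analysed here and 91 were tested. With the group alone 0 of 91 passed the threshold. With Ptprc as a covariate 0 were higher and 2 were lower in the knockouts, which is 2.2% beside 2.29% of all genes. Within the 4 Ptprc-rich libraries, where the knockouts also held more Ptprc, 13 were higher and 2 (Slfn5 and Ifi205) were lower, 16.5% beside 11.5% of all genes. Of 21 interferon ligands 4 were analysed here, and only Ifng passed the filter on low values. It measured 0.774, 7.88 and 30.4 in the controls and 10.4, 7.73, 47.3 and 17.9 in the knockouts, from 1 to 42 reads. Ifnk, the interferon of keratinocytes, had at most 34 reads in a library, and Ifnb1 was not analysed here. Ifnar1, of the type I receptor, measured 1168, 1448 and 1612 in the controls and 1441, 1387, 3087 and 1923 in the knockouts (0.41 ± 0.31 with the group alone, adjusted p = 0.9996). Ifngr1, of the interferon-gamma receptor, measured 1429, 1079 and 1581 and 1453, 1157, 2657 and 1764 (0.31 ± 0.30, adjusted p = 0.9996), and the groups overlap in both genes.

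Downstream of the receptors, Jak1 stayed between 3377 and 4413. Jak2, the kinase of the interferon-gamma receptor, measured 787, 1065 and 1491 in the controls and 1379.7, 1371, 2182 and 1798 in the knockouts, an estimate of 0.52 ± 0.16 with Ptprc (adjusted p = 0.142). Irf1, the factor that carries much of the interferon-gamma response, measured 3316, 2804 and 2300.0 in the controls and 2324, 3682, 1942 and 2141 in the knockouts, and within each group the libraries with more Ptprc held less of it (slope -0.08). Irf4, a factor of leukocytes, was ordered the other way, at 91.4, 1940.4 and 2022 in the controls and 163, 128, 2559 and 1752 in the knockouts. Sting1 (chromosome 18), the adaptor of cytosolic DNA sensing, measured 333, 584 and 529 in the controls and 716, 569.9, 998 and 994 in the knockouts, and its estimate with Ptprc was 0.66 ± 0.15 (adjusted p = 0.0689). Sting1 passed with a sex term beside Ptprc (0.66, adjusted p = 0.047) and within the 4 Ptprc-rich libraries (0.83 ± 0.18, adjusted p = 0.0105). It was 1 of 4 such pathway genes of 91 with the sex term (4.4%, beside 4.77% of all genes). Within the 4 libraries it was 1 of 15 (16.5%, beside 11.5%). The adaptor gene Myd88 ranged from 601 to 1170.0. Among restraining genes, Samhd1, which depletes the nucleotides that viruses need, ranged from 956 to 5739.5 and followed Ptprc (slope 0.34), and Socs3, an inhibitor of JAK kinases, ranged from 8577 to 16975. The ISG15-conjugating genes Uba7 and Ube2l6 ranged from 276 to 807 and from 149.9 to 263.

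The 2 pathway genes that fell in the fit with Ptprc were Slfn5 and Gbp2b. Slfn5 (ENSMUSG00000054404, chromosome 11), a type I inducible Schlafen gene, measured 1289.7, 3885 and 3575 in the controls and 816, 613, 2302 and 2164 in the knockouts (log2 difference -1.27 ± 0.20, adjusted p = 0.0187). Its call was lost without control 4M (adjusted p = 0.135) and without control 7F (adjusted p = 0.077), in each case with a negative estimate. Within the Ptprc-rich libraries both knockouts were below both controls, and within the Ptprc-poor ones both knockouts were below control 4F. Gbp2b (ENSMUSG00000040264, chromosome 3), a neighbour of Gbp2 in the same family, measured 3.1, 95.8 and 117 in the controls and 3.12, 0.966, 63.1 and 64.7 in the knockouts (log2 difference -1.25 ± 0.23, adjusted p = 0.0305). In the Ptprc-poor libraries it rested on 1 to 4 reads, and within the 4 Ptprc-rich libraries its difference was -0.64 ± 0.29 (adjusted p = 0.192). Its call was also lost with a pseudocount of 0.25 per M (-1.79 ± 0.37, adjusted p = 0.0527). Without control 4M, control 7F or knockouts 1M, 2M or 3F it was lost at adjusted p-values of 0.152, 0.130, 0.0885, 0.0982 and 0.0637.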

How the data were processed

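The authors deposited a table of normalized counts, a signal with 1 factor per library. Tested on the values, only 77.9% to 79.5% of low values (below 200 reads) came out whole within 0.02 reads, so whole reads were not recovered and no count test was run. TopHat2 2.1.0 and Partek 9.0.20.0202 are named per the submitters' processing notes, and neither the genome build nor the strand setting is given in the sources used here. Columns were assigned to groups by name.

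Values were analysed as log2(value + 11.9), with a pseudocount of 1 per M of the median column total. Genes with at least 1 per M in at least 3 libraries were tested with limma 3.58.1 in R 4.3.3 (lmFit, eBayes with trend, Benjamini-Hochberg at 0.05), with the group alone (5 residual degrees of freedom) and with log2 Ptprc (4). Both fits were also run on simulated counts with the same dispersion for all genes, and no result given here rests on that. The members, gene lists, covariate and rules were chosen with earlier results of these data known. Values per library are given, in each of 8 role groups, for the gene with the highest mean and the genes with the smallest p in either fit. Further genes given by library (Irf7, Isg15, Ifit3b, most OAS genes, Mx1, Gbp2, Gbp3, Irgm1) were chosen after their values were seen. Stretches of 50 bases shared between genes were counted in GENCODE M21 transcripts. 1 gene of the pathway lists counted among those tested is not reported here.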

Additional observations from a re-analysis of the deposited data

How the results depend on the processing

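No paired analysis was possible because the columns carry no replicate number of the labels. Tests on recovered reads were not run because whole reads were not recovered. With the group alone, array weights gave 7 interferon response genes and 3795 genes in all past the threshold, with medians of -0.62 for the type I inducible genes and -0.064 for the GTPases, and the other 14 alternatives gave 0 genes. Leaving out each library moved these medians between -0.42 and 0.17 and between 0.034 and 0.25. With Ptprc, 1272 genes passed with array weights, 866 with a sex term (1 interferon response gene) and 2078 within the 4 Ptprc-rich libraries (2 interferon response genes), and in that last comparison Iigp1 reversed to -0.88. Leaving out each library gave 5 (without control 4M) to 1642 genes (without control 4F), 18 without control 7F and 229 to 256 without a knockout. The cause was not tested. Among estimates of the 14 named genes that were not called, 20 of 204 changed sign with the group alone and 21 of 249 with Ptprc, in 5 genes each. The log2 difference of Zfp750 ranged from -1.91 to -0.70. The counts of genes higher or lower in every knockout ranged from 2 to 6 and from 2 to 4 of 32 when each library was left out, an alternative chosen after seeing the data, while over all genes these shares ranged from 4.42% to 9.87% and from 5.03% to 9.98%. In control 4F the OAS genes rested on at most 7 reads apart from Oasl2, so differences among them below that level were not detectable at this depth.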
